A study of Homo sapiens with 8 samples.

Results

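The genes of the ATF4 integrated stress response described here are ATF3, ATF4, ASNS, DDIT3, PPP1R15A, CEBPB, HERPUD1, PSAT1, PHGDH and TRIB3, named in a list of 10 genes. A probe set entered when the platform annotation gave it exactly 1 gene symbol and that symbol was on the list. This gave 8 probe sets for 8 genes, out of 7840 probe sets with a single symbol, and all 8 passed the filter on dim signals. DDIT3 and HERPUD1 had no such probe set here and were not analysed. In RefSeq (GRCh38.p14) the regulators lie at chr22:39520559-39522686 (ATF4), chr1:212565407-212620777 (ATF3) and chr20:50190583-50192690 (CEBPB), and the feedback genes at chr19:48872421-48876058 (PPP1R15A) and chr20:380760-397559 (TRIB3). The enzymes lie at chr7:97851677-97928441 (ASNS), chr9:78297125-78330093 (PSAT1) and chr1:119711934-119744215 (PHGDH). Messenger RNA was measured on 8 Affymetrix HG-Focus arrays from 2 human breast cancer cell lines, with 2 arrays in each of 4 groups. In the first pair of groups, ZR75-1 cells, labelled ER +, received a plasmid carrying HSD17B14 or the vector lacking that insert. In the second pair, cells labelled SKBR3 and ER - received the same plasmid or vector. All groups grew in phenol-red free medium with 4% serum, were transfected with FuGene-6 and were harvested 48 h later. Transfection was transient, and the share of cells that took up the plasmid is not given in the sources used here. The labels do not say whether the 2 arrays of a group came from separate cultures, and a p-value here speaks only of array-to-array spread, which may be technical.

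The integrated stress response begins when kinases that sense amino acid shortage, unfolded protein, double-stranded RNA or heme shortage phosphorylate the translation factor eIF2. General translation then falls while translation of ATF4 messenger RNA rises, and the ATF4 protein, a basic leucine zipper factor, switches on genes for amino acid supply, further transcription factors and feedback. ATF4 is therefore controlled largely at translation, and its messenger RNA level is only 1 part of its activity. Among its known targets, ATF3 and CEBPB encode partner transcription factors. ASNS, PSAT1 and PHGDH encode enzymes of amino acid synthesis. PPP1R15A (GADD34) directs a phosphatase to eIF2 and TRIB3 is a pseudokinase that restrains ATF4.

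The targeted gene followed the plasmid. HSD17B14, which encodes a hydroxysteroid dehydrogenase, had signals of 107.5 and 135.3 with the plasmid in ZR75-1, against 17.8 and 2.1 with the vector. In the cells labelled SKBR3 its signals were 650.7 and 743.6 with the plasmid, against 2.0 and 4.2 with the vector. ERBB2, which SKBR3 cells are known to carry in many copies, had signals of 95.9 to 226 on the 4 ZR75-1 arrays and of only 25.9 to 46.8 on the 4 arrays labelled SKBR3. Of its neighbours in the same amplicon, GRB7 had 8.9 to 67.7 in ZR75-1 and 4.1 to 14.9 on those labelled SKBR3. STARD3 overlapped between the lines and leaned the other way, with 24.8 to 30.3 in ZR75-1 against 27.5 to 36.4. ESR1, the estrogen receptor, had 194.5 to 341.6 in ZR75-1 and 14.9 to 24.6 on those labelled SKBR3. The other luminal markers measured were also lower there but not dim. TFF1 had 1874.1 to 2767.7 in ZR75-1 against 962.4 to 1073.3, and GATA3 1220.8 to 1638.8 against 284 to 416.4. The mesenchymal gene VIM ran from 0.4 to 25.7 on the ZR75-1 arrays and from 3646.2 to 5325.8 on the others. Of the other 5 mesenchymal markers measured, COL1A1 went the opposite way, with 21.8 to 50.4 in ZR75-1 against 3.4 to 14.4, and COL1A2, PDGFRB, COL3A1 and LUM did not exceed 28.5 on any array. Because ERBB2 goes against the label, that second line is called SKBR3-labelled below. All 5 breast epithelial markers (KRT8, KRT18, KRT19, EPCAM, CDH1) lay above a signal of 17.6 on every array, but their summed signal was 15354.9 to 18390.3 in ZR75-1, against 4272 to 5902.4 on the SKBR3-labelled arrays. CDH1, which encodes E-cadherin, had 1074.7 to 1508.4 in ZR75-1, against 26.8 to 58.1. The part of these marker differences in the line differences reported below was not tested. The value 17.6 is the highest of the arrays' 40th percentiles and serves below as a common floor. None of the 3 leukocyte and 3 endothelial markers measured lay above it on all 4 arrays of either line.

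The DNA before the starts of these genes was read for the motifs of this response. RefSeq (GRCh38.p14) holds 17 windows for the 10 genes, each reaching from 250 bases before to 50 bases after an annotated transcription start. They were searched on both strands for the core of the C/EBP-ATF response element that ATF4 binds (TGATGNAA), for the cyclic AMP response element (TGACGTCA, the same on both strands) and for the endoplasmic reticulum stress element ERSE. The first was in 3 windows, 1 each of ASNS, ATF3 and HERPUD1, and in 3.62% of all 35116 windows of this length. The second was in the PPP1R15A window and in 1.85% of all windows. ERSE, searched as a single letter pattern, was in 0 of the 17, and in 0.0769% of all. Other forms of this element were not searched for, so the windows may hold them. No matches overlapped. A match is a run of letters and not a shown binding site, and a window without one says nothing about binding elsewhere. The windows of the 3 measured genes with a match are given below, 5′ to 3′ on the gene's own strand, with the match in capitals. They are shown because they hold the matches, and the windows of the other 5 measured genes, ATF4 and PHGDH among them, held none. The ASNS window lies at chr7:97872359-97872658 on the minus strand, and its match covers bases -68 to -61 from the start. The ATF3 window lies at chr1:212565157-212565456 on the plus strand with its match at -191 to -184, while a second ATF3 start, whose window begins at base 212614768, has none. The PPP1R15A window lies at chr19:48872171-48872470 on the plus strand with its match at -58 to -51.
ASNS: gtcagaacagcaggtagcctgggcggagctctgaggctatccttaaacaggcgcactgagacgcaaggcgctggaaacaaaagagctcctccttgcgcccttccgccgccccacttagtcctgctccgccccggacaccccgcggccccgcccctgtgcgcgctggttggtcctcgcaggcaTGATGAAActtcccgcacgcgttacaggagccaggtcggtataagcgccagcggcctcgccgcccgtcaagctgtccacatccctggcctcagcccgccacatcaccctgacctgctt
ATF3: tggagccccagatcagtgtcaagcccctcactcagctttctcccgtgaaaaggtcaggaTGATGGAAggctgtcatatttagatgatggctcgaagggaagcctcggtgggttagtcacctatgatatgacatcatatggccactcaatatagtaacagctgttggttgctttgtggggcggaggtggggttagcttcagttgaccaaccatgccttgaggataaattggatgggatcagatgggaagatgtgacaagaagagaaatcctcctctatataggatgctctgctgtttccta
PPP1R15A: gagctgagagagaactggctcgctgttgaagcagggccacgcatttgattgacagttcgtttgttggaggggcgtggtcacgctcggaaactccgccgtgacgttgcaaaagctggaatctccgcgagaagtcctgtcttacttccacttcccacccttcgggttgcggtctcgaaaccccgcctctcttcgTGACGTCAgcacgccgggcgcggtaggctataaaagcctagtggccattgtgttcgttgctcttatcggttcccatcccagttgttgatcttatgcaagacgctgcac

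The first comparison asks what the HSD17B14 plasmid did to these genes in the SKBR3-labelled cells. ATF3, a stress-induced transcription factor, was the 1 member of 8 that passed the adjusted threshold, and it was lower with the plasmid. Its signals were 95.1 and 104.6 with HSD17B14 (99.8 ± 6.72, SD, n = 2), against 191.6 and 178.5 with the vector (185 ± 9.26, SD, n = 2). Both arrays with the plasmid lay below both controls, and below all 4 ZR75-1 arrays. The fitted change was -0.89 ± 0.17 on the log2 scale (limma standard error, n = 2 arrays per group), 1.85-fold lower, with adjusted p = 0.0285. Over all 6251 probe sets tested, 0.992% passed in this comparison.

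This call lies near the threshold. Under 19 other settings the fitted ATF3 change stayed between -0.96 and -0.72, and it missed the threshold under 9 of them. These included either SKBR3-labelled HSD17B14 array left out (adjusted p = 0.398 without array 1 and 0.193 without array 2), SKBR3-labelled vector array 1 left out (0.127), and either ZR75-1 HSD17B14 array left out (0.0611 and 0.0604). The actin 3'/5' ratio, a measure of RNA integrity, was 2.28 and 3.09 on the SKBR3-labelled HSD17B14 arrays against 3.6 and 3 on the vector arrays. Once this ratio entered the model, the ATF3 change was -0.78 ± 0.25 (adjusted p = 0.687). Over all probe sets 37 then passed in these cells, against 62 without the ratio. Bacillus spike-in controls were high on 1 array of each SKBR3-labelled group, and ATF3 differed by -1.01 between the 2 low arrays and by -0.77 between the 2 high ones.

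Of the other regulators, ATF4 itself had signals of 839.7 and 833.5 with HSD17B14 and 860.9 and 807.5 with the vector in the SKBR3-labelled cells. The control values enclose those with the plasmid, and the fitted change was 0.00 with a 95% interval of -0.29 to 0.30. CEBPB, a leucine zipper factor that pairs with ATF4, had 370.9 and 386.6 with HSD17B14, against 428.0 and 352.2 with the vector (-0.04, interval -0.38 to 0.31). The intervals of both genes include 0 and also modest changes in either direction. The feedback gene TRIB3 had 106.7 and 124.5 with HSD17B14 and 105.8 and 115.5 with the vector (0.06 ± 0.17). PPP1R15A had 176.0 and 193.2 with HSD17B14 and 236.6 and 186.7 with the vector (-0.19 ± 0.21). In both genes the groups overlapped.

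None of the 3 amino acid enzymes passed in the SKBR3-labelled cells. ASNS, asparagine synthetase, had 144.1 and 180.6 with HSD17B14, against 226.0 and 215.9 with the vector. The groups did not overlap and the change was -0.45 ± 0.19 (adjusted p = 0.508). PSAT1, phosphoserine aminotransferase of the serine pathway, had 154.1 and 155.3 with HSD17B14 and 125.2 and 170.7 with the vector, which overlap (0.08 ± 0.26). PHGDH, which starts serine synthesis from a glycolytic intermediate, had 26.8 and 37.4 with HSD17B14, against 1.9 and 24.5 with the vector. Its fitted change of 2.21 ± 0.88 did not pass (adjusted p = 0.489) and rests on the control at 1.9. It was 0.37 without that array, 4.06 without the other control (adjusted p = 0.00282), and 0.61 with signals raised to the common floor.

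Counted without adjustment, 3 of the 8 members had a limma p under 0.05 in the SKBR3-labelled cells, PHGDH upward and ATF3 and ASNS downward, while 8.78% of all probe sets did. In 3 of the 8 the arrays of the groups did not overlap, as in 40.1% of all probe sets. The median change of the members was -0.02 on the log2 scale, and that of all probe sets -0.01.

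**Figure D1:**
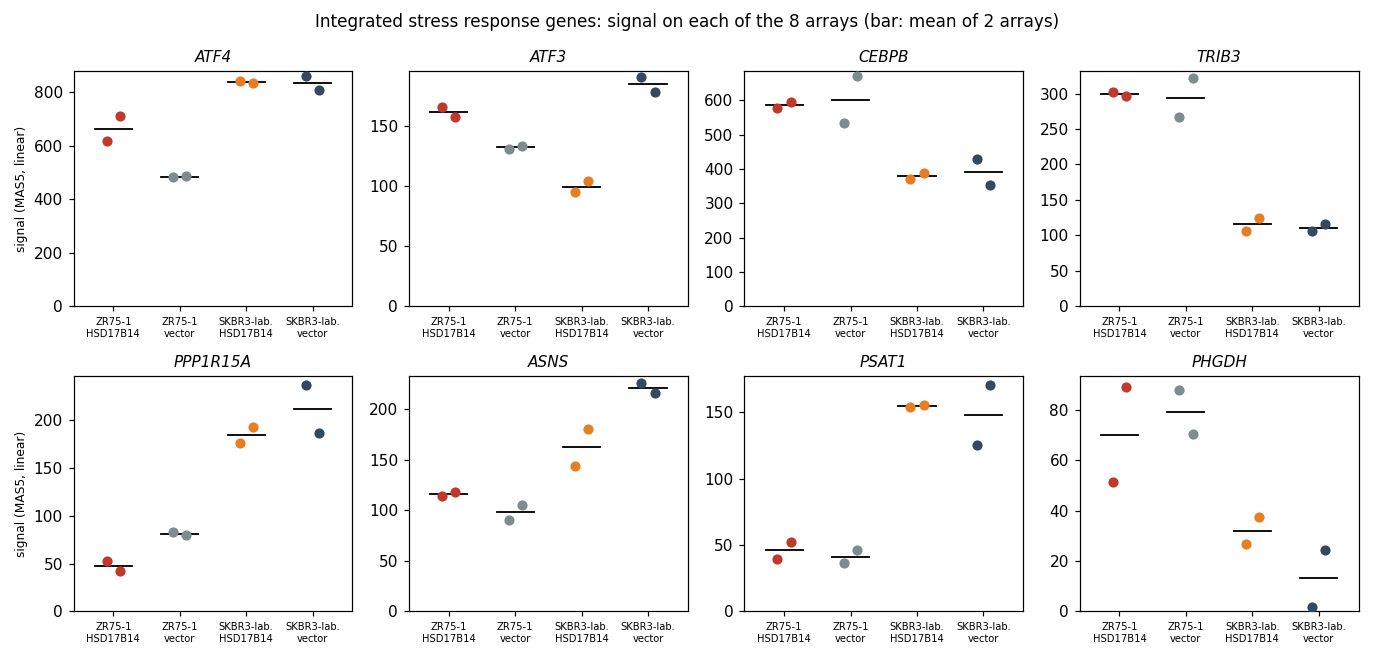
Signal of the 8 measured genes on each array (vertical axes, linear MAS5 signal from 0), by line and plasmid (horizontal axis), with 1 point per array and a bar at the mean of 2 arrays. ATF3 sits at 95.1 and 104.6 in SKBR3-labelled cells with HSD17B14, below all other arrays, and PPP1R15A at 42.4 and 53.1 in ZR75-1 with HSD17B14, below all other arrays.

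The same question in ZR75-1 gave 0 of 8 members past the adjusted threshold, where 1.52% of all probe sets passed. At an unadjusted limma p under 0.05, 2 of 8 did (ATF4 upward and PPP1R15A downward), against 18% of all probe sets. PPP1R15A, the stress-induced subunit of the eIF2 phosphatase, had 53.1 and 42.4 with HSD17B14, against 83.5 and 79.6 with the vector. Both arrays with the plasmid lay below both controls, with a change of -0.78 ± 0.21 (1.72-fold, adjusted p = 0.0822). ATF4 had 616.3 and 709.1 with HSD17B14, against 483.5 and 484.7 with the vector. Both plasmid arrays lay above both controls, with a change of 0.45 ± 0.13 (1.37-fold, adjusted p = 0.102).

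ATF3 in ZR75-1 had signals of 166.0 and 158.0 with HSD17B14, against 131.0 and 133.9 with the vector (0.29 ± 0.17, adjusted p = 0.408). ASNS had 114.3 and 118.5 with HSD17B14, against 90.7 and 105.0 with the vector (0.25 ± 0.19, adjusted p = 0.511). Neither passed, though in both the plasmid arrays lay above the controls. Such a lack of overlap was found in 4 of 8 members (ATF3, ATF4, ASNS and PPP1R15A) and in 47% of all probe sets in ZR75-1.

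The remaining 4 members overlapped between plasmid and vector in ZR75-1. CEBPB had 576.3 and 593.8 with HSD17B14 and 532.9 and 669.9 with the vector (-0.03 ± 0.16). TRIB3 had 302.4 and 296.2 with HSD17B14 and 266.6 and 321.4 with the vector (0.03 ± 0.17). For these genes the 2 control arrays stood further apart than the 2 groups. PSAT1 had 39.8 and 52.3 with HSD17B14 and 36.2 and 46.0 with the vector (0.16 ± 0.26), and PHGDH had 51.4 and 89.2 with HSD17B14 and 88.2 and 70.5 with the vector (-0.22 ± 0.88).

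In ZR75-1 the quality measures moved with the plasmid, in opposite directions. The GAPDH 3'/5' ratio was 0.896 and 0.883 with HSD17B14 and 1.08 and 1.04 with the vector. The actin 3'/5' ratio was 2.83 and 2.66 with HSD17B14 and 2.03 and 2.02 with the vector. With it as a covariate the changes were -1.07 ± 0.34 for PPP1R15A and 0.45 ± 0.23 for ATF4 (adjusted p = 0.477 and 0.626). Within each ZR75-1 group the ratio varied little, so its slope rests mainly on the SKBR3-labelled arrays. Plasmid and ratio cannot be well separated in ZR75-1. Median centring moved the median of all probe sets to 0.16, against -0.04 as deposited, and gave -0.58 ± 0.23 for PPP1R15A and 0.65 ± 0.19 for ATF4. Spike-in controls were high on 1 ZR75-1 HSD17B14 array and on no vector array, and among the low ones (1 array against 2) the difference was -0.62 for PPP1R15A and 0.35 for ATF4. The median of the 8 members was 0.10 as deposited.

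**Figure D2:**
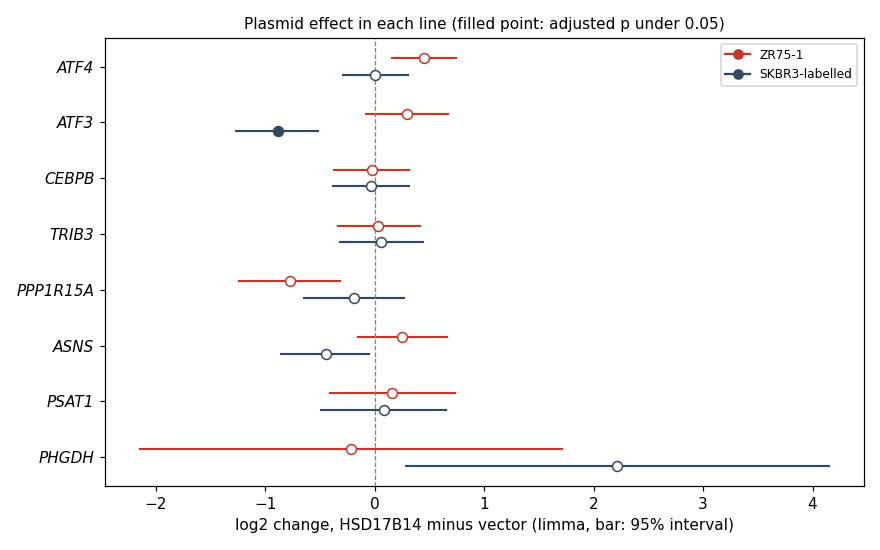
Fitted log2 change, HSD17B14 minus vector, for each gene (rows) in ZR75-1 and in SKBR3-labelled cells (colours), with 95% intervals from limma, n = 2 arrays per group. The one filled point, past adjusted p of 0.05, is ATF3 in SKBR3-labelled cells at -0.89, and the PHGDH intervals are the widest.

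Whether the plasmid acted differently in the lines was tested as the difference of the fitted changes, ZR75-1 minus SKBR3-labelled. None of the 8 members passed, against 0.624% of all probe sets. At an unadjusted limma p under 0.05, 3 members did (ATF3, ATF4 and ASNS, all with the higher change in ZR75-1), against 13% of all probe sets. ATF3 came closest, with a difference of 1.18 ± 0.24 (adjusted p = 0.0609). It passed under 3 of 18 other settings, with adjusted p from 0.0377 to 0.049 after a 60th percentile filter, after log2 of the signal plus 32 and with signals raised to the common floor. ASNS differed by 0.71 ± 0.26 (adjusted p = 0.301) and ATF4 by 0.44 ± 0.19 (adjusted p = 0.347). For PPP1R15A the difference was -0.59 ± 0.30 and for PHGDH -2.43 ± 1.25 (adjusted p = 0.432 and 0.444). The PHGDH value again rests on single controls, being -0.59 without SKBR3-labelled vector array 1 and -4.28 without vector array 2 (adjusted p = 0.0195), and it was -0.13 with the actin ratio as a covariate.

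Averaged over both lines, 0 of 8 members passed, and 1.5% of all probe sets did. Without adjustment 3 members had a limma p under 0.05, against 14.2% of all probe sets. These were PPP1R15A at -0.48 ± 0.15, ATF3 at -0.30 ± 0.12 and ATF4 at 0.23 ± 0.09 (adjusted p from 0.166 to 0.29, n = 4 arrays per arm). For ATF3 this average joins changes of opposite sign, of which the one in ZR75-1 did not pass.

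The genes whose arrays followed ATF3 most closely were sought among all other named genes by Pearson's r of log2 signals over the 8 arrays, after the mean of each line was taken off. These were ODC1, the first enzyme of polyamine synthesis (0.990), KCNAB2, a potassium channel subunit (0.987), and RPL7, a ribosomal protein (0.973). KCNAB2 lay under the common floor on both SKBR3-labelled HSD17B14 arrays, at 9.3 and 11.9. ODC1 had 173.3 and 154.5 with HSD17B14 and 139.7 and 133.0 with the vector in ZR75-1. In the SKBR3-labelled cells it had 1074 and 1117.6 with HSD17B14, against 1873.7 and 1777.7 with the vector. Like ATF3 it was higher with the plasmid in the first line and lower in the second. For ATF4 the closest were CLCN4 (0.984), ME3 (0.976) and COPS2, a subunit of the COP9 signalosome (0.975). CLCN4 and ME3 lay under the common floor on all ZR75-1 arrays, at 2.7 to 16.4 and 0.7 to 9.7. Among the members themselves, ATF3 correlated with ASNS at 0.90 and ATF4 with PPP1R15A at -0.89. These values describe 8 arrays that share their lines, plasmids and scaling, and are not independent of the changes above.

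**Figure D3:**
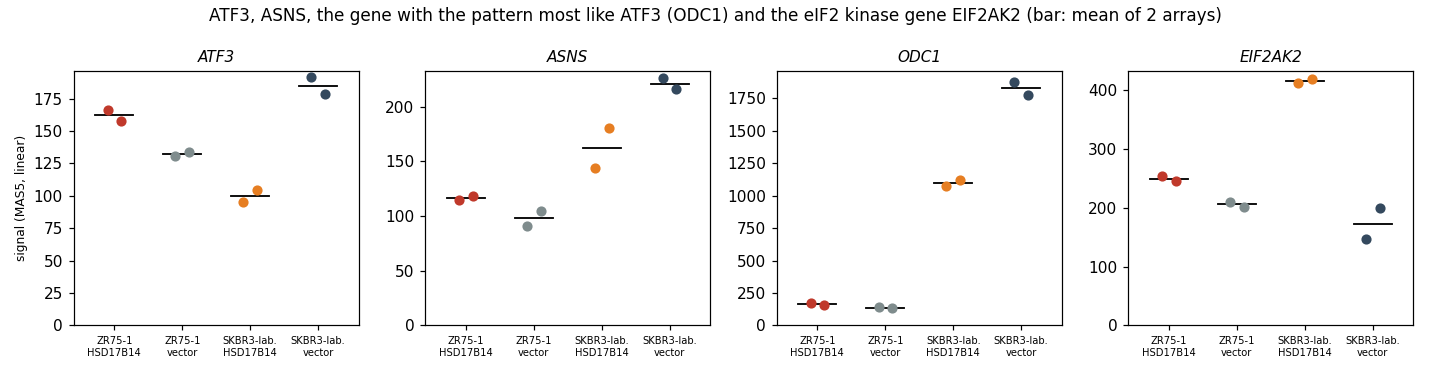
Signals of ATF3, ASNS, ODC1 and EIF2AK2 on each array (linear MAS5 signal from 0), by line and plasmid, with 1 point per array and a bar at the mean of 2 arrays. In the SKBR3-labelled cells the first 3 genes are lower with HSD17B14 than with the vector, and EIF2AK2 is higher.

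The second question is how the 2 lines differ in these genes, taken as ZR75-1 minus SKBR3-labelled over 4 arrays each, plasmid and vector weighted equally. Of the 8 members 7 passed, 3 higher and 4 lower in ZR75-1. Lines differed widely: 49.2% of all probe sets passed and 54.6% had an unadjusted limma p under 0.05, a measure that 7 members also met. In the same 7 the arrays of the lines did not overlap, against 42.5% of all probe sets. The share that passes depends on brightness: after the 60th percentile filter, 2798 of 4213 probe sets passed between the lines. Among the 7, the regulators, the feedback genes and the amino acid enzymes each had members on both sides. In bulk RNA, fewer cells expressing a gene and less of its RNA per cell cannot be told apart.

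Among the regulators, ATF4 had 483.5 to 709.1 (median 550) in ZR75-1, against 807.5 to 860.9 (median 837) in the SKBR3-labelled cells. It was 1.48-fold lower in ZR75-1 (-0.56 ± 0.09, adjusted p = 3.71e-04). By group, the order from low to high was ZR75-1 vector, ZR75-1 HSD17B14 and then both SKBR3-labelled groups, which overlapped each other. CEBPB went the other way, with 532.9 to 669.9 in ZR75-1 against 352.2 to 428.0, a 1.54-fold higher level (0.62 ± 0.11, adjusted p = 5.79e-04). ATF3 was the 1 member that did not pass. Its ZR75-1 signals of 131.0 to 166.0 lay inside the SKBR3-labelled range of 95.1 to 191.6, between the plasmid and the vector group of those cells (0.11 ± 0.12, adjusted p = 0.49).

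The feedback genes differed between the lines in opposite directions. TRIB3 had 266.6 to 321.4 in ZR75-1, against 105.8 to 124.5 in the SKBR3-labelled cells, 2.62-fold higher (1.39 ± 0.12, adjusted p = 1.99e-06). PPP1R15A had 42.4 to 83.5 in ZR75-1, against 176.0 to 236.6, 3.17-fold lower (-1.66 ± 0.15, adjusted p = 2.53e-06). Neither call was lost under any of the 18 other settings.

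The amino acid enzymes split as well, within the serine pathway itself. PSAT1 had 36.2 to 52.3 in ZR75-1, against 125.2 to 170.7 in the SKBR3-labelled cells, 3.49-fold lower (-1.80 ± 0.18, adjusted p = 7.34e-06). PHGDH, the enzyme one step before it, had 51.4 to 89.2 in ZR75-1 against 1.9 to 37.4, a fitted difference of 2.31 ± 0.62 (adjusted p = 0.00895). Its size depends on the single SKBR3-labelled vector array at 1.9, being 1.39 without it and 1.51 with signals raised to the common floor, and the call was lost with the actin ratio as a covariate (1.31, adjusted p = 0.358) and with a prior not dependent on the mean (adjusted p = 0.067). ASNS had 90.7 to 118.5 in ZR75-1, against 144.1 to 226.0, 1.77-fold lower (-0.82 ± 0.13, adjusted p = 2.64e-04). With the actin ratio as a covariate the ASNS difference was -0.64 (adjusted p = 0.0528). That ratio was 2.02 to 2.83 over the ZR75-1 arrays, against 2.28 to 3.6 over the SKBR3-labelled ones.

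**Figure D4:**
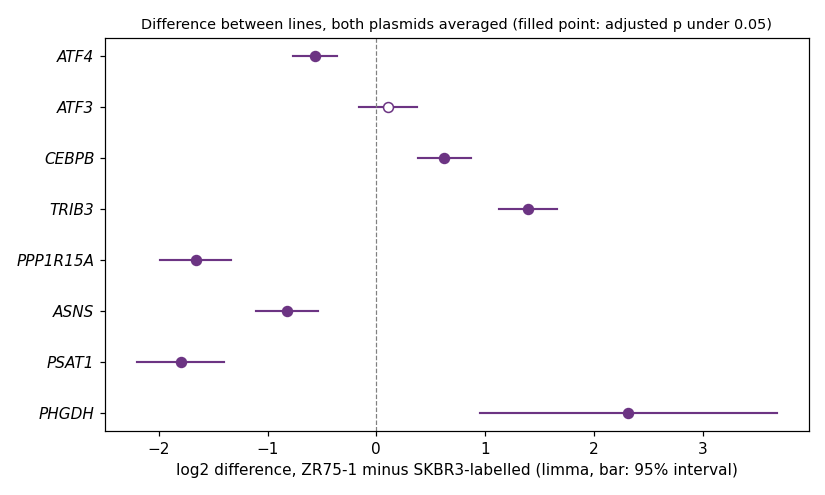
Fitted log2 difference, ZR75-1 minus SKBR3-labelled cells, for each gene (rows), with 95% intervals from limma, n = 4 arrays per line. Filled points passed adjusted p of 0.05: PHGDH, TRIB3 and CEBPB lie to the right, ATF4, ASNS, PPP1R15A and PSAT1 to the left, and ATF3 at 0.11 is open.

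Other genes of the pathway were taken from 4 lists. In the order below they name 19, 22, 25 and 23 genes, of which 13, 17, 18 and 15 were tested. The rest had no probe set with that symbol alone, or did not pass the filter (SLC6A9, FGF21 and GDF15). The first holds the eIF2 kinases and the factors of eIF2-dependent translation, with 13 of 19 genes tested. The only eIF2 kinases among the 13 were EIF2AK1, EIF2AK2 and EIF2AK3, without the one that senses amino acid shortage. In the SKBR3-labelled cells 1 of 13 rose with the plasmid and 0 fell, while 0.992% of all probe sets passed (59 higher and 3 lower). This was EIF2AK2, the kinase PKR, which senses double-stranded RNA, phosphorylates eIF2 and is itself induced by interferon. It had 412.6 and 419.9 with HSD17B14, against 146.5 and 199.8 with the vector, 2.43-fold higher (1.28 ± 0.17, adjusted p = 0.00158). Both plasmid arrays lay above every other array of the series. The call was lost with the actin ratio as a covariate (1.17, adjusted p = 0.0756) and with a prior not dependent on the mean (adjusted p = 0.119). In ZR75-1, where 0 of 13 passed, EIF2AK2 had 255.2 and 245.1 with HSD17B14 and 210.6 and 201.3 with the vector, and the difference of its changes between lines did not pass (-1 ± 0.24, adjusted p = 0.116). Averaged over lines it rose by 0.78 ± 0.12 (adjusted p = 0.00513), again 1 of 13, a call lost with a prior not dependent on the mean (adjusted p = 0.139). In ZR75-1 the genes with the smallest p were EIF4EBP1, a repressor of cap-dependent translation (-0.65 ± 0.17, adjusted p = 0.0786), and PPP1CB, a phosphatase catalytic subunit (1.43 ± 0.42, adjusted p = 0.104). EIF2S2, a subunit of eIF2, had the smallest p for the difference between lines (0.83 ± 0.19, adjusted p = 0.104).

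None of the 17 tested genes of amino acid synthesis and transport passed for the plasmid in either line. At an unadjusted limma p under 0.05, 1 was higher and 3 lower in ZR75-1, where 18% of all probe sets met this cut. In the SKBR3-labelled cells 0 were higher and 1 lower, where 8.78% met it. The list's median change was -0.16 in ZR75-1, where that of all probe sets was -0.04. Its median was -0.21 in the SKBR3-labelled cells, where that of all probe sets was -0.01. SLC7A5, the large neutral amino acid transporter, had 901.8 and 1183.5 with HSD17B14 and 1718.5 and 1535.5 with the vector in ZR75-1 (-0.65 ± 0.17, adjusted p = 0.0723). PYCR1, of proline synthesis, had 178.4 and 301.0 with HSD17B14 and 420.6 and 423.0 with the vector there (-0.86 ± 0.26, adjusted p = 0.106). SLC7A11, the cystine transporter, had 72.6 and 62.0 with HSD17B14 and 144.8 and 107.2 with the vector in the SKBR3-labelled cells (-0.89 ± 0.33, adjusted p = 0.44). GPT lay under the common floor on all 8 arrays.

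Nor did any of the 18 tested ATF4 partners and stress effectors pass for the plasmid. Without adjustment 2 were higher and 1 lower in ZR75-1 (18% of all probe sets), and 3 higher and 0 lower in the SKBR3-labelled cells (8.78% of all). The transcription factor KLF4 had the smallest p in each line, with 370.2 and 347.7 with HSD17B14 and 300.6 and 207.8 with the vector in ZR75-1 (0.52 ± 0.19). In the SKBR3-labelled cells KLF4 had 410.0 and 340.2 with HSD17B14 and 265.3 and 225.5 with the vector (0.61 ± 0.19), and its average over lines was 0.57 ± 0.14 (adjusted p = 0.0732). PMAIP1, the apoptosis promoter NOXA, had 606.5 and 267.6 with HSD17B14 and 239.1 and 148.5 with the vector in the SKBR3-labelled cells (1.10 ± 0.35, adjusted p = 0.328). NFE2L2, the antioxidant factor NRF2, had a change of 0.44 ± 0.17 in ZR75-1 (adjusted p = 0.205), and CEBPD had the smallest p for the difference between lines (-0.72 ± 0.28, adjusted p = 0.319).

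The 15 tested genes of the unfolded protein response in the endoplasmic reticulum gave 0 calls for the plasmid too. Without adjustment 3 were higher and 1 lower in ZR75-1 (18% of all probe sets). In the SKBR3-labelled cells 2 were higher and 0 lower (8.78% of all). The list's medians were 0.13 in ZR75-1 and 0.22 in the SKBR3-labelled cells, where those of all probe sets were -0.04 and -0.01. The smallest p in ZR75-1 belonged to the protein disulfide isomerase PDIA6 (0.36 ± 0.13) and to SDF2L1 (0.49 ± 0.19), with adjusted p = 0.182 and 0.191. In the SKBR3-labelled cells they belonged to the isomerases PDIA3 (0.79 ± 0.26) and P4HB (0.56 ± 0.20), with adjusted p = 0.35 and 0.412. For the difference between lines P4HB came first at -1.04 ± 0.28 (adjusted p = 0.148).

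**Figure D5:**
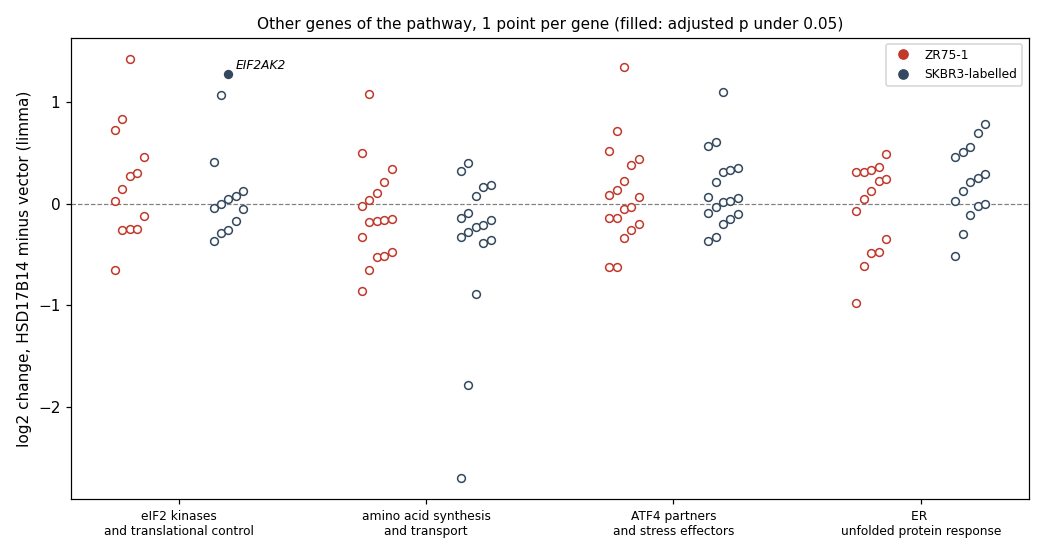
Fitted log2 change, HSD17B14 minus vector (vertical axis), for every tested gene of the 4 lists (horizontal axis) in ZR75-1 and in SKBR3-labelled cells (colours), with 1 point per gene. The one filled point, past adjusted p of 0.05, is EIF2AK2 at 1.28 in SKBR3-labelled cells, and the lowest point is GPT, which lay under the common floor on all arrays.

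Between the lines the calls in these lists are set beside the 49.2% of all probe sets that passed. For eIF2 and translation, 4 were higher and 4 lower in ZR75-1 of 13. PPP1CA and the heme-regulated kinase EIF2AK1 were higher (2.01 ± 0.11 and 1.58 ± 0.09), as was EIF4EBP1 (1.66 ± 0.12), while the eIF2B subunits EIF2B2 and EIF2B3 were lower (-1.69 ± 0.13 and -1 ± 0.17), as was PPP1CC (-0.71 ± 0.13). For amino acid synthesis and transport, 6 were higher and 4 lower of 17. SLC7A5 had 901.8 to 1718.5 in ZR75-1 against 134.3 to 161.4, 9.07-fold higher, and its partner SLC3A2 was 2.80-fold higher. PYCR1 (1.46 ± 0.18) and the mitochondrial folate enzyme MTHFD2 (1.18 ± 0.12) were higher too, and the transporters SLC38A2 (-2.29 ± 0.17) and SLC7A11 (-1.89 ± 0.23) were lower.

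Of the 18 partners and effectors, 3 were higher and 8 lower in ZR75-1, again beside 49.2% of all probe sets. NUPR1, a stress-induced nuclear protein, had 142.2 to 456.1 in ZR75-1 and stayed under the common floor on all 4 SKBR3-labelled arrays, at least 15.5-fold higher (adjusted p = 2.4e-05). GADD45A, a growth arrest gene, had 39.4 to 68.0 in ZR75-1 against 476.7 to 716.0, 12.7-fold lower. TXNIP (-1.84 ± 0.10), NDRG1 (-2.23 ± 0.24) and PMAIP1 (-2.13 ± 0.25) were lower as well, and CEBPD was higher (2.01 ± 0.14). Of the 15 unfolded protein response genes, 8 were higher and 1 lower in ZR75-1, where 1440 of all 6251 probe sets were higher and 1633 lower, with a median of 0.46 against -0.04 for all probe sets. XBP1, the factor spliced under this stress, was 4.32-fold higher, SDF2L1 4.21-fold, P4HB 2.71-fold, WFS1 2.49-fold and PDIA3 2-fold. ERO1A, an oxidase of disulfide bond formation, was at least 3.15-fold lower, being at or under the common floor on all 4 ZR75-1 arrays.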

How the data were processed

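Each array's values were deposited by the authors as linear signal intensity per probe set, and the submitters' processing notes name MAS5. The version is not given in the sources used here, and every array's trimmed mean was 100.1. Of 8793 probe sets, 47 controls were left out and 7840 of the rest had 1 symbol, while 388 had several and 518 had none. Values were floored at 1 and put on the log2 scale without further normalization. Probe sets above their array's own 40th percentile on at least 2 arrays were tested, 6251 in all. A linear model over the 4 groups was fitted in limma 3.58.1 (R 4.3.3) with a prior variance that depends on the mean, and p-values were Benjamini-Hochberg adjusted over all tested probe sets at a threshold of 0.05. The model was tested on simulated data, with results not given here. Promoters were read with Python 3.11.15 and plots drawn with matplotlib 3.10.9.

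Members and gene lists were chosen with earlier results of these data known. Every member was named, with the label checks HSD17B14, ESR1 and ERBB2. From each list, up to 6 called genes by smallest p were named in a comparison, or the 2 with the smallest p where none passed, and the 3 genes most like ATF3 and ATF4. VIM was named after its values were seen. A gene with several probe sets was represented by the one with the highest mean. A gene under the common floor in a whole group has only a bound there. Probe sets of ATF3, ASNS and PSAT1 carry a suffix for probes shared between transcripts. Those of HSD17B14, EIF2AK2, RPL7, GPT, KRT8 and KRT18 carry a suffix for probes that may also bind unrelated transcripts. Alternatives were quantile normalization, median centring, other filters, log2 of the signal plus 32, a common floor, another prior, the actin ratio, the spike-in level or the replicate number in the model, a line fitted alone, and each array left out. Same-numbered arrays did not deviate together (correlations from -0.04 to 0.06), so the numbers were not taken to pair them. The spike-in level did follow the number in part. Every array with a high level was numbered 2, though ZR75-1 vector array 2 was low. With 2 arrays per group, the number of arrays limits the precision. By Pearson's r of log2 signals, SKBR3-labelled vector array 2 had 0.946 and 0.941 with that line's HSD17B14 arrays and 0.889 with vector array 1. The ZR75-1 vector arrays had 0.872 with each other, against 0.898 and 0.888 with HSD17B14 array 2, and 0.868 and 0.865 with array 1. The 2 HSD17B14 arrays had 0.954 with each other in the SKBR3-labelled cells and 0.902 in ZR75-1.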

Additional observations from a re-analysis of the deposited data

Results flagged for a closer look

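In 2 members both HSD17B14 arrays lay above both vector arrays in ZR75-1 and below both in the SKBR3-labelled cells. Over all 6251 probe sets, 584 (9.34%) were without overlap in both lines and in opposite directions. For ATF3 the plasmid changes differed by 1.18 ± 0.24 on the log2 scale (limma adjusted p = 0.0609), being 0.29 in ZR75-1 and -0.89 in the SKBR3-labelled cells. For ASNS they differed by 0.71 ± 0.26 (limma adjusted p = 0.301), being 0.25 in ZR75-1 and -0.45 in the SKBR3-labelled cells. Neither difference passed the adjusted threshold. The actin 3'/5' ratio was higher with HSD17B14 in ZR75-1, and in the SKBR3-labelled cells it was 2.28 and 3.09 with HSD17B14 and 3.6 and 3 with the vector. With this ratio as a covariate the ATF3 difference was 0.92 and the ASNS difference 0.28 (limma adjusted p = 0.996 for each). In that model 0 of all 6251 probe sets passed for the difference, against 39 without the ratio. The ASNS changes were then 0.01 in ZR75-1 and -0.28 in the SKBR3-labelled cells. The part of RNA integrity was not tested further.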

How the results depend on the processing

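The 1 member called for the plasmid in the SKBR3-labelled cells became 0 under median centring, with a prior not dependent on the mean, with the actin ratio as a covariate and with that line fitted alone, and 0 to 2 with an array left out. The 0 members called for the difference between lines became 1 (ATF3) with the 60th percentile filter, with log2 of the signal plus 32 and with the common floor. Leaving out SKBR3-labelled vector array 2 moved the PHGDH difference to -4.28, against -2.43 with all arrays. Averaged over lines, leaving out an array gave 0 to 1, the 1 being PHGDH without SKBR3-labelled vector array 2. In ZR75-1 the count was 0 under all 19 alternatives, and between lines it ran from 5 to 7, against 7. With the replicate block, ATF3 in the SKBR3-labelled cells stayed at -0.89 (limma adjusted p = 0.0398), and the block changed no call on a member, while the ATF4 partners and stress effectors gave 1 call in those cells and 2 averaged over lines with it, against 0 without it. Over all probe sets the block gave 104 calls in ZR75-1, against 95 without it. Those 95 became 23 under median centring (18 higher and 5 lower, against 46 and 49), 262 with log2 of the signal plus 32, 13 with the other prior, 19 with the spike-in block and 1 with the actin ratio. With an array left out they ran from 13 (ZR75-1 HSD17B14 array 1) to 134 (SKBR3-labelled vector array 2), being 23 without either SKBR3-labelled HSD17B14 array. The 62 calls in the SKBR3-labelled cells became 125 without vector array 2 and 40 without HSD17B14 array 1. The 39 for the difference became 5 and 10 without SKBR3-labelled HSD17B14 array 1 or 2, and 19, 11 and 25 without ZR75-1 HSD17B14 array 1 or 2 or vector array 1. The 94 averaged over lines became 221 without SKBR3-labelled vector array 2, and 62 and 58 without HSD17B14 array 1 or 2 of that line. The shares of all probe sets move with these counts. Among the 4 gene lists, counts of 0 for the plasmid within a line reached at most 2 under an alternative, and averaged over lines at most 3 (partners and effectors, log2 plus 32). Dim signals limit PHGDH, whose SKBR3-labelled vector array 1 read 1.9. The causes of these shifts were not tested.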
